A study of Homo sapiens with 18 samples.

Results

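The transcripts measured here belong to the program of ATF4, the transcription factor that cells make when amino acids run short or when the endoplasmic reticulum is under stress. The members were taken by gene symbol from a list of 48 genes, and 47 of them had a row in the tables of 21411 genes, while CBS was not analysed here. They comprised 8 transcription factors, 8 stress effectors and secreted factors, 7 enzymes of serine and one-carbon metabolism, 6 other enzymes of amino acid and carbon metabolism, 8 amino acid transporters, and 10 genes of tRNA charging and tRNA export.

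RNA came from MDA-MB-231, an established line of triple-negative breast cancer, grown for 7 days as 3D cultures in Matrigel. There were 6 conditions with 3 biological replicates each, which gave 18 libraries. Jag1WT was the wildtype line, and Jag1KO was the same line after CRISPR/Cas9 editing of JAG1, used as a mixture of 15 single-cell clones. Jag1KO + rescue carried a pcDNA3.1 plasmid with Jagged1 cDNA and Jag1KO + ctrl the empty plasmid, so that both shared the edited JAG1, the plasmid backbone and G418 selection. siCtrl and siJag1 were wildtype cells transfected before seeding, siCtrl with a nontargeting siRNA and siJag1 with a mixture of siRNAs against JAG1. JAG1 encodes Jagged1, a ligand of Notch receptors. Each condition came from 1 line or clone mixture, and the p-values below measure the spread between its replicate cultures.

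Stress kinases such as GCN2, which senses uncharged tRNA, and PERK, which senses unfolded protein, phosphorylate the initiation factor eIF2. Most translation then slows, while ATF4 mRNA is translated more, so that ATF4 activity is set largely at the level of protein. ATF4 protein, mostly as a dimer with C/EBP proteins, binds composite sites in its targets, which supply amino acids by uptake and synthesis, charge tRNAs, and, under prolonged stress, include the pro-apoptotic factor DDIT3, also called CHOP, and its partners.

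A sequence that C/EBP-ATF dimers are known to bind is shown first, since part of the members share it. RefSeq promoters on GRCh38.p14, from 250 bases before to 50 bases after the transcription start, were matched to 39 members, which had 63 promoters because some genes have several starts. The 8 letters TGATGCAA, a form of the C/EBP-ATF response element, were searched on both strands and were present for 11 of these members, 28.2%, against 1.08% of the 27305 genes with a promoter of the same length. Counted by promoter, they were in 13 of 63, 20.6%, against 0.866% of all 35116. The looser form TGATGNAA, which includes every TGATGCAA, was present for 16 members, 41%, against 4.46% of all genes, and in 28.6% of member promoters against 3.62% of all. Most of the matched members thus held neither form in these windows. A match of letters is a description of the window and not a measured binding site. The members were listed as genes of the ATF4 program, so their higher share is tied to that choice and is not a test. The following stretches of 30 bases, each upstream of 1 of the RefSeq starts of its gene and written 5′ to 3′ on the strand of the gene, come from a transcription factor, a stress effector, a tRNA synthetase, a transporter, a folate enzyme and asparagine synthetase, with the matched letters in capitals.
CEBPG, chr19:33374060-33374089, plus strand: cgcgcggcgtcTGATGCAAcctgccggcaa
CHAC1, chr15:40953251-40953280, plus strand: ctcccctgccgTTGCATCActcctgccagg
AARS1, chr16:70289675-70289704, minus strand: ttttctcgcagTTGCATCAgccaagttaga
SLC1A5, chr19:46784893-46784922, minus strand: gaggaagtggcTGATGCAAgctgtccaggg
MTHFD1L, chr6:150866346-150866375, plus strand: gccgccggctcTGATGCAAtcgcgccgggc
ASNS, chr7:97872458-97872487, minus strand: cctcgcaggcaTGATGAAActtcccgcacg
In CHAC1 and AARS1 the match lies on the opposite strand, so the capitals read as its reverse complement. ASNS holds only the looser form in this window. The stretches of CEBPG, SLC1A5, MTHFD1L and ASNS lie within the span of the gene, upstream of a start that is not its outermost. All stretches shown but that of CEBPG overlap an untranslated exon of some GENCODE transcript.

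Total counts per library ranged from 10330581 to 18327890, with a median of 15168046.5. Levels are given as CPM, the deposited counts scaled to library size with TMM factors, unless another scale is named. JAG1 followed the labels. Its CPM were 433, 585 and 522 in Jag1WT and 116, 205 and 149 in Jag1KO. The rescue libraries held 534, 657 and 646 CPM and the empty-plasmid libraries 110.2, 134 and 147. In the siRNA arm JAG1 was at 441, 626 and 531 CPM in siCtrl and at 166, 203 and 131 CPM in siJag1. The groups did not overlap in any of the 3 comparisons, and the log2 fold changes of JAG1 were 1.71, 2.22 and 1.68, with an edgeR FDR of 0.0163, 0.0227 and 0.111. The cell line markers VIM, CD44, KRT18 and AXL were above 127 CPM in every library. Of the receptors listed as low in triple-negative breast cancer, ESR1 did not pass 0.136 CPM and PGR did not pass 1.77 CPM. ERBB2, from the same list, was not near 0 and ranged from 32.48 to 59.98 CPM. Of 10 markers of other cell types, 5 stayed below 1 CPM throughout, and CD68 was the highest, at 88.92 to 208.9 CPM. In bulk cultures, fewer cells of a type and less RNA per cell cannot be told apart.

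Per unit of length, the members spanned a wide range in the unperturbed line. In Jag1WT the highest mean RPKM were those of the glutamine transporter SLC38A2, 413 ± 16.0 (SD, n = 3), and the mTORC1 inhibitor DDIT4, 366 ± 53.2 (SD, n = 3). ASNS followed at 330.3 ± 17.8 and ATF4 at 265 ± 26.6 RPKM (SD, n = 3). Neither SLC38A2 and DDIT4 nor DDIT4 and ASNS differed beyond their spread, whereas ASNS and ATF4 stood apart by more than their SDs. The lowest were PHGDH at 4.47, INHBE at 3.43, STC2 at 0.785 and ALDH1L2 at 0.130 RPKM. PHGDH, the first enzyme of serine synthesis, was thus far below PSAT1, which acts next, at 225 RPKM in the same libraries.

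In the edgeR fits of 6 libraries none of the members tested was called in the 3 comparisons that change JAG1, 47 members in the clone and siRNA arms and 46 in the plasmid arm, whereas DESeq2 called 8 in the plasmid arm and the edgeR fit of all 18 libraries 19. The levels of the members differed widely between libraries. Most members were lowest in the same 3 libraries, Jag1KO + ctrl replicates 1 and 2 and siJag1 replicate 2, which carried the labels of less JAG1, while Jag1KO + ctrl replicate 3 and the 3 Jag1KO libraries, with JAG1 RNA in the same range, were not low. These libraries were singled out after their values were seen, so they are described and not tested as a group. The median member, taken as log2(CPM + 1) over the 46 members above 1 CPM in at least 9 libraries and set against the Jag1WT mean, stood at -1.05 and -1.30 in Jag1KO + ctrl replicates 1 and 2 and at -0.52 in siJag1 replicate 2. It was 0.10 in Jag1KO + ctrl replicate 3, and the other 14 libraries lay between -0.16 and 0.31. Of the 46 members, 34, or 73.9%, had their 3 lowest values in exactly these libraries, which was so for 8.79% of 12803 genes above the same minimum. Jag1KO + ctrl replicate 2 alone held the lowest value of 40 members and of 16.4% of all these genes.

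**Figure D1:**
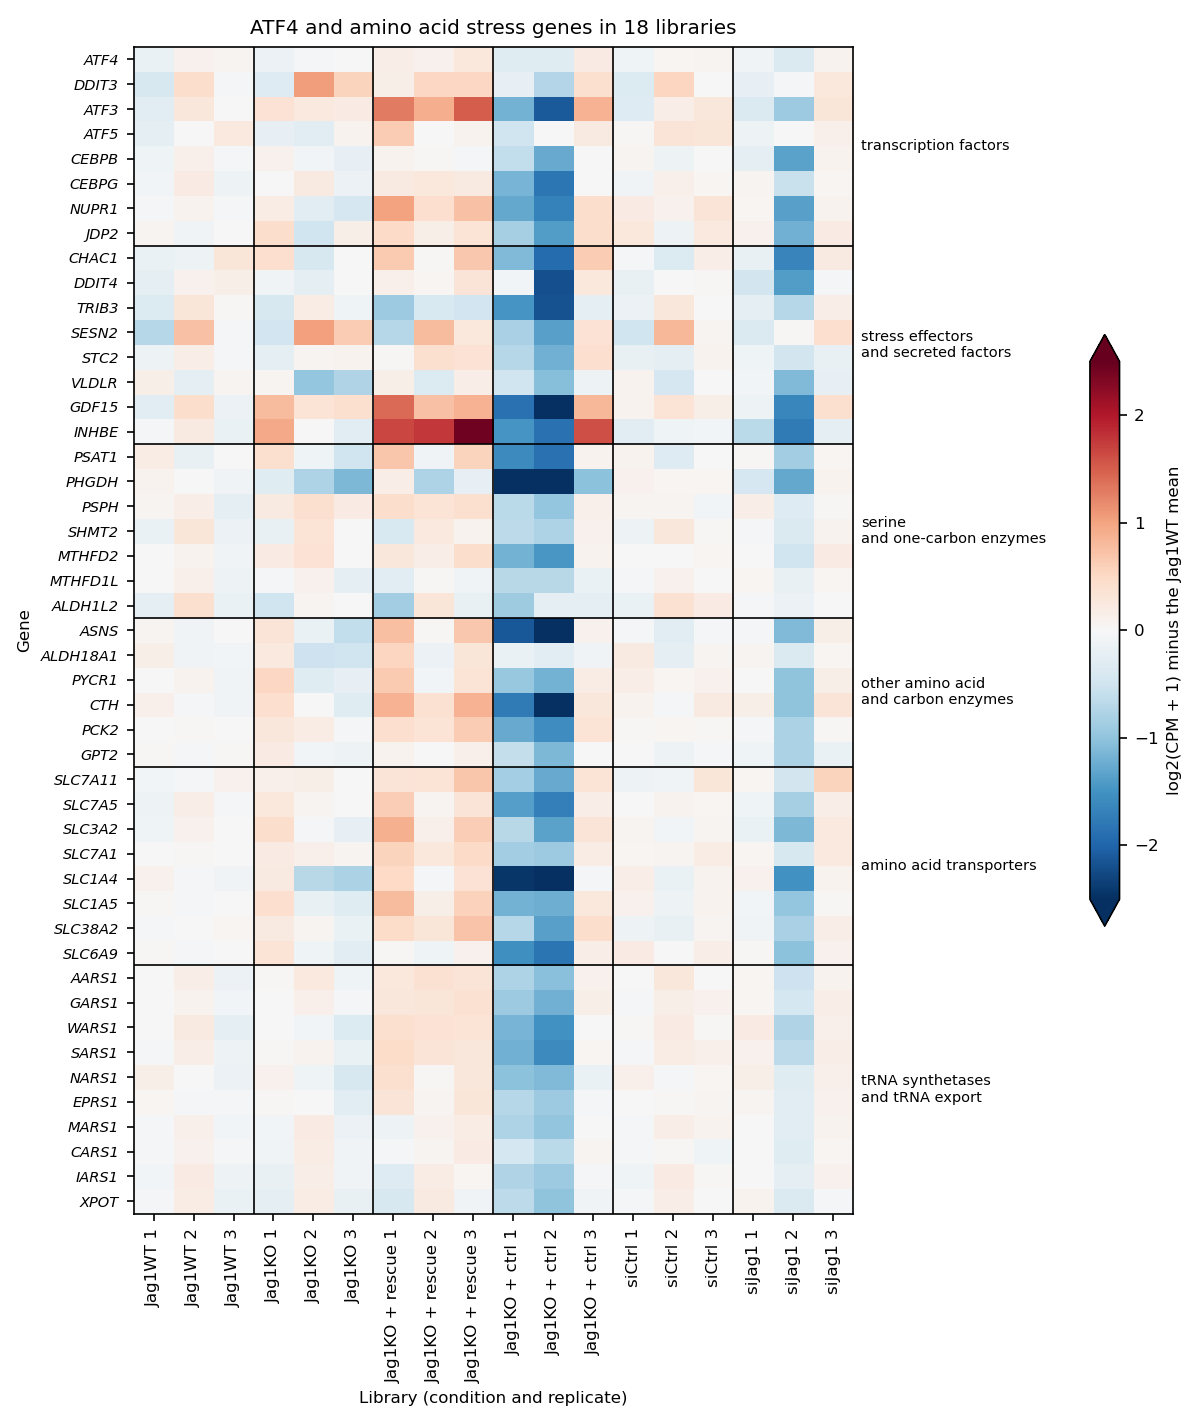
Level of each of the 47 members (rows, by role) in the 18 libraries (columns, 3 replicates per condition), as log2(CPM + 1) minus the mean of the 3 Jag1WT libraries, with values beyond 2.5 in either direction drawn in the end colours. Blue columns in every role mark Jag1KO + ctrl replicates 1 and 2 and, more weakly, siJag1 replicate 2, while Jag1KO + ctrl replicate 3 resembles the remaining libraries.

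The spread of the members was widest in the conditions that held those libraries. Across the 46 members the median coefficient of variation between replicates was 61.7% in Jag1KO + ctrl and 29.3% in siJag1, against 16.7% and 15.0% for all genes. In Jag1WT, Jag1KO, Jag1KO + rescue and siCtrl it was 9.84%, 14.6%, 15.8% and 8.47% for the members, and 11.4%, 15.7%, 15.2% and 10.7% for all genes. From the lowest to the highest of the 18 libraries, members differed by a median of 3.95-fold and all genes by 2.03-fold.

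The transcription factors comprised a steadier pair, ATF4 and ATF5, and a more variable remainder. ATF4 mRNA was at 474, 573 and 561 CPM in Jag1WT and at 484, 516 and 539 CPM in Jag1KO. It read 601, 575 and 644 CPM in Jag1KO + rescue and 431, 435 and 617 CPM in Jag1KO + ctrl. The siCtrl libraries held 496, 549.7 and 560.3 CPM and the siJag1 libraries 504, 417 and 567 CPM. The 3 lowest libraries of ATF4 were thus again Jag1KO + ctrl replicates 1 and 2 and siJag1 replicate 2, but from lowest to highest it spanned only 1.55-fold, the least of the 47 members. ATF5, which like ATF4 is known for control at translation, varied between 13.6 and 31.0 CPM, and Jag1KO + ctrl replicate 2 was not low for it, at 19.8 CPM.

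DDIT3, the pro-apoptotic factor, was at 58.1, 105 and 74.7 CPM in Jag1WT and at 61.5, 160.0 and 114 CPM in Jag1KO. In Jag1KO + rescue it was at 84.8, 111 and 111 CPM, and in Jag1KO + ctrl at 66.5, 46.0 and 102 CPM. The siCtrl values were 60.7, 113 and 76.7 CPM and the siJag1 values 66.6, 74.1 and 92.9 CPM. All 3 pairs of groups overlapped, and DDIT3 did not share the pattern of siJag1 replicate 2. ATF3, an early stress factor that was picked for display after its values were seen, showed the pattern in its full size, with 23.3, 11.9 and 99.5 CPM in Jag1KO + ctrl against 134, 103 and 155 CPM in Jag1KO + rescue. Those groups did not overlap. NUPR1, a stress-induced chromatin protein picked the same way, was at 30.5, 22.7 and 103 CPM in Jag1KO + ctrl and at 78.0, 28.6 and 79.7 CPM in siJag1, with 56.1 to 153 CPM in every other library.

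Among the stress effectors, CHAC1, which degrades glutathione, had 87.8, 91.0 and 122 CPM in Jag1WT and 133, 75.2 and 98.1 CPM in Jag1KO. In the plasmid arm it was at 156, 101 and 159 CPM with the rescue and at 45.7, 25.6 and 154 CPM without it. siCtrl gave 96.8, 78.6 and 112 CPM and siJag1 87.6, 30.9 and 116 CPM. CHAC1 was therefore low in the same 3 libraries, and groups overlapped in every comparison.

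TRIB3, a pseudokinase that feeds back on ATF4, was at 202, 315 and 261 CPM in Jag1WT and 193, 289 and 238 CPM in Jag1KO. Here the rescue libraries, at 136, 195 and 183 CPM, lay below most Jag1KO values, and the empty-plasmid libraries were at 91.3, 55.7 and 218 CPM. siCtrl libraries held 229, 312 and 254 CPM and siJag1 libraries 218, 156 and 287 CPM. Of the plasmid arm, only Jag1KO + ctrl replicate 3 lay within the Jag1WT range of TRIB3. The secreted stress hormone GDF15 and the activin subunit INHBE had the widest swings of this role, and both were chosen for display after their values were seen. GDF15 read 33.3, 12.4 and 220.0 CPM in Jag1KO + ctrl against 331, 205 and 228 CPM in Jag1KO + rescue. INHBE read 2.34, 1.56 and 27.4 CPM against 28.5, 30.6 and 49.4 CPM, and spanned 31.7-fold over the 18 libraries.

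**Figure D2:**
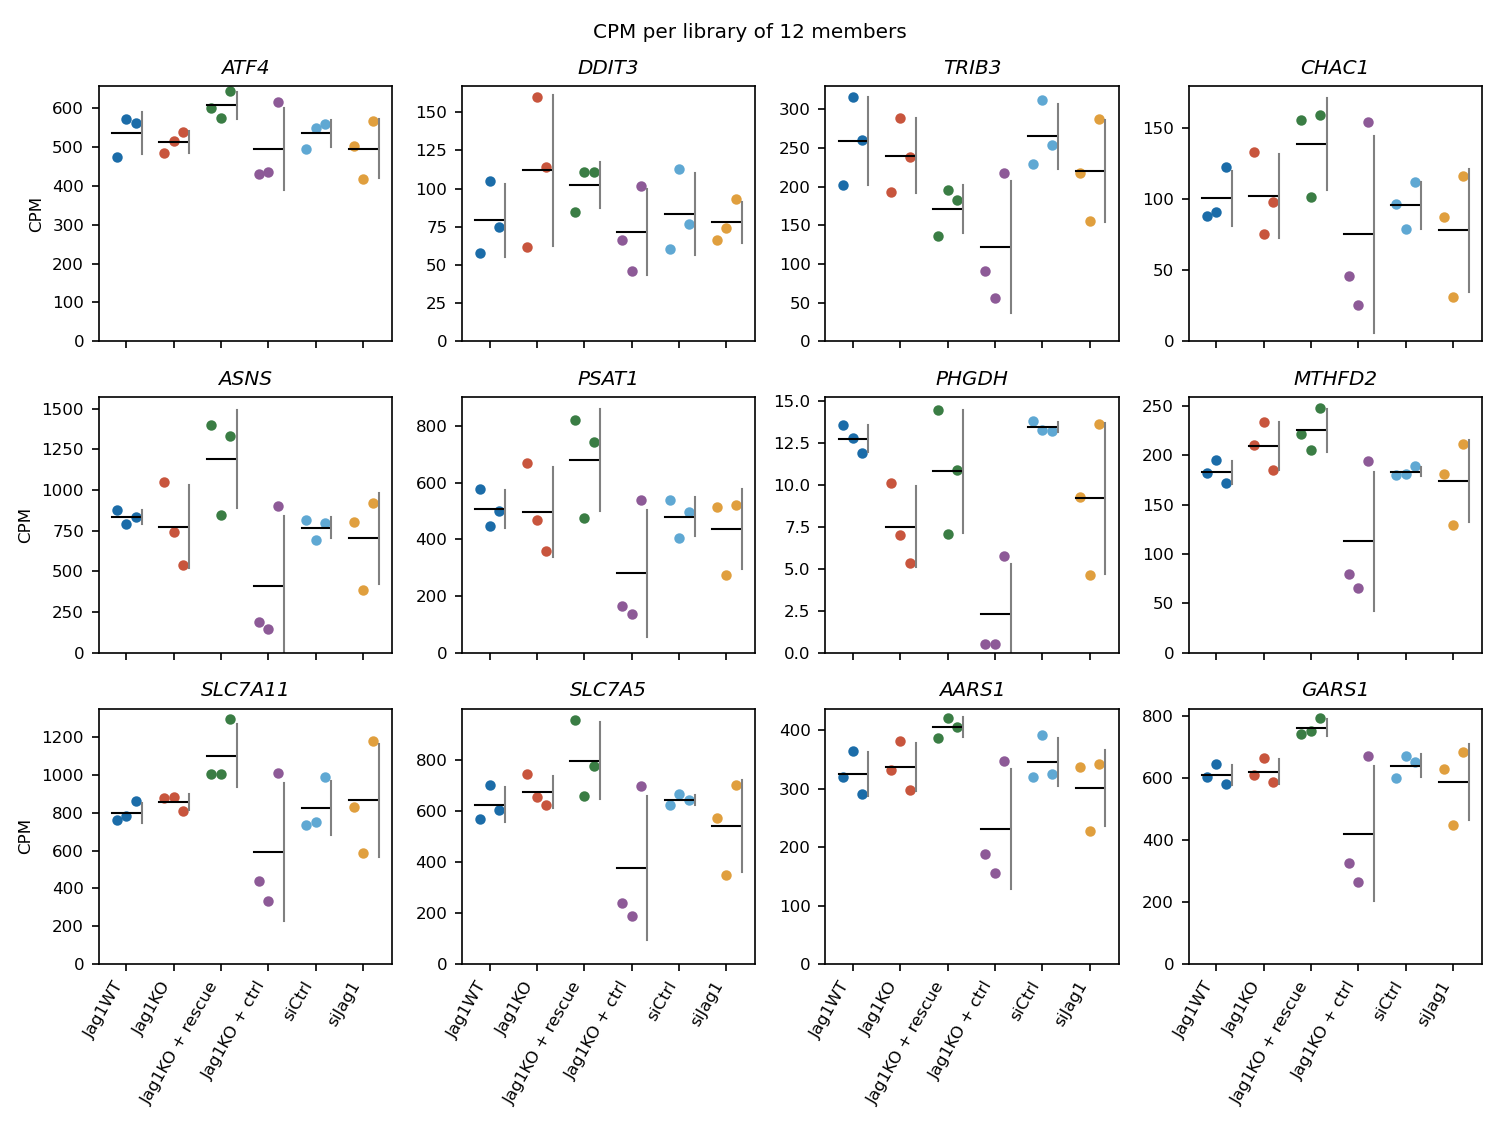
CPM (linear axes from 0) of 12 members in the 6 conditions, with 1 point per library, replicates 1 to 3 from left to right, the mean as a black line and the SD as a grey bar cut at 0 where it would go below. In most panels 2 of the 3 Jag1KO + ctrl points and the middle siJag1 point lie low, and ATF4 is the flattest panel.

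Of the serine and one-carbon enzymes, PHGDH had the widest range, 26.8-fold over the 18 libraries. PHGDH, the entry enzyme of serine synthesis, was at 13.6, 12.8 and 11.9 CPM in Jag1WT and 10.1, 7.03 and 5.35 CPM in Jag1KO, without overlap. It was at 14.4, 7.07 and 10.9 CPM in Jag1KO + rescue and at 0.540, 0.539 and 5.78 CPM in Jag1KO + ctrl, again without overlap, and the 2 lowest of these libraries rested on 9 reads each. siCtrl had 13.8, 13.3 and 13.2 CPM and siJag1 9.30, 4.65 and 13.6 CPM, which overlapped. The log2 fold change of PHGDH, with the larger JAG1 dose as the first group, was 0.75 (SE 0.24) in Jag1WT against Jag1KO, 2.22 (SE 0.83) in the plasmid arm and 0.56 (SE 0.34) in the siRNA arm, and the edgeR quasi-likelihood FDR was 0.360, 0.132 and 0.969.

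PSAT1, the next enzyme of the pathway, was at 576, 445 and 499.7 CPM in Jag1WT and at 670.3, 467 and 358 CPM in Jag1KO. In Jag1KO + rescue it was at 819.9, 476 and 744 CPM, and in Jag1KO + ctrl at 166, 137 and 539 CPM. siCtrl libraries were at 538, 404 and 498 CPM and siJag1 libraries at 516, 275 and 522 CPM. Jag1KO + ctrl replicate 3 exceeded the second rescue library, so the groups overlapped.

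MTHFD2, the mitochondrial folate enzyme, was at 182, 195 and 172 CPM in Jag1WT and 211, 234 and 185 CPM in Jag1KO. It was at 222, 205 and 248 CPM in Jag1KO + rescue and at 79.6, 65.7 and 194 CPM in Jag1KO + ctrl, with no overlap. siCtrl gave 180.4, 181 and 189 CPM and siJag1 181, 129.8 and 211 CPM. ALDH1L2, a mitochondrial folate enzyme, was near the limit of detection at 2 to 25 reads per library and was not tested in the plasmid arm.

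Of the other enzymes, ASNS, which makes asparagine and is a classical ATF4 target, carried the pattern most visibly because of its level. Jag1WT libraries held 879, 789 and 836 CPM and Jag1KO libraries 1047, 739.7 and 540.4 CPM. The rescue libraries were at 1403, 849 and 1330.2 CPM and the empty-plasmid libraries at 192, 143 and 904 CPM. siCtrl was at 814, 695 and 800.4 CPM and siJag1 at 802, 385 and 921 CPM. Within Jag1KO + ctrl, replicates 1 and 2 lay far under every other library of the series, and replicate 3 lay above all Jag1WT libraries. CTH, which makes cysteine from cystathionine and was displayed after its values were seen, behaved likewise with 64.2, 35.8 and 268 CPM in Jag1KO + ctrl.

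All 8 transporters had their 3 lowest libraries in Jag1KO + ctrl replicates 1 and 2 and siJag1 replicate 2. SLC7A5, the large neutral amino acid transporter, was at 569, 701 and 603 CPM in Jag1WT and at 745, 654 and 622 CPM in Jag1KO. It was at 956, 657 and 777 CPM in Jag1KO + rescue and at 239, 189.7 and 698 CPM in Jag1KO + ctrl. In siCtrl it was at 624, 665 and 640.3 CPM and in siJag1 at 573, 347 and 702 CPM.

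SLC7A11, the cystine importer that NRF2 also drives, was at 760.5, 780.4 and 861 CPM in Jag1WT and 879, 882 and 808 CPM in Jag1KO. It was at 1003, 1007 and 1296 CPM in Jag1KO + rescue and at 441, 332 and 1010.2 CPM in Jag1KO + ctrl. siCtrl had 735, 751 and 989 CPM and siJag1 831, 585 and 1182 CPM, which made it the 1 member with a fold change below 0 in the siRNA arm. The neutral amino acid exchanger SLC1A4, picked after its values were seen, had the widest range of the role, 9.44-fold, with 18.3, 15.6 and 102 CPM in Jag1KO + ctrl.

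The tRNA synthetases moved together and over the smallest range, a median of 2.54-fold between lowest and highest library. AARS1, for alanine, was at 319.6, 365 and 291 CPM in Jag1WT and at 333, 381 and 298 CPM in Jag1KO. Its values were 387, 421 and 406 CPM in Jag1KO + rescue and 188, 156 and 348 CPM in Jag1KO + ctrl, without overlap. siCtrl was at 319.9, 392 and 325 CPM and siJag1 at 336, 227 and 343 CPM.

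GARS1, for glycine, was at 603, 644 and 582 CPM in Jag1WT and at 611, 664 and 588 CPM in Jag1KO. With the rescue it was at 742, 752 and 794 CPM and with the empty plasmid at 325, 266 and 670.3 CPM, without overlap. siCtrl held 599, 670.2 and 653 CPM and siJag1 630.1, 449 and 684 CPM. In 7 of the 10 genes of this role the 3 lowest libraries were the same as for the transporters.

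Jag1WT against Jag1KO asked what loss of JAG1 did in clones. Of 47 members 0 passed the call of FDR below 0.05 and fold change above 1.5, where 0.704% of 12928 genes passed, 0.41% higher and 0.294% lower in Jag1WT, and DESeq2 also called 0. The median log2 fold change was -0.01 for the members and -0.01 for all genes, 21 members lay above 0 and 26 below. At an unadjusted p below 0.05 there were 2 members, PHGDH above and GDF15 below, at -0.49 with an FDR of 0.546 (edgeR), where 4.33% of all genes were higher and 4.49% lower. Groups did not overlap for PHGDH, which was higher, where 7.22% of all genes were, and for SLC7A1 and PSPH, which were lower at -0.14 and -0.28 on the log2 scale, where 6.61% of all genes were. Without Jag1KO replicate 1, 4 members were called, PHGDH at 1.02, VLDLR at 0.87 and SLC1A4 at 0.74 higher in Jag1WT and DDIT3 at -0.80 lower, beside 2.61% and 4.68% of all genes.

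Jag1KO + rescue against Jag1KO + ctrl asked what Jagged1 cDNA did in the edited cells. All 46 members tested had a log2 fold change above 0, as 49.8% of 12894 genes did, from 0.29 for ATF4 to 2.22 for PHGDH. Their median was 0.84 and that of all genes was 0.00 to 2 decimals. With 6 libraries 0 members were called and only 0.00776% of all genes, which is JAG1 itself, and the smallest FDR of a member was 0.107 for NARS1 (edgeR). DESeq2 called 8 members, all higher, beside 4.58% of all genes higher and 7.72% lower. The edgeR fit of all 18 libraries called 19, all higher, beside 6.05% higher and 10.7% lower. At an unadjusted p below 0.05 there were 17 members, all higher, where 14.4% of all genes were higher and 16.4% lower, and 15 members had non-overlapping groups, all higher, where 16.5% of all genes were higher and 16% lower without overlap. The count of 17 ranged from 1, without Jag1KO + ctrl replicate 1, to 44, without Jag1KO + ctrl replicate 3, beside 4.67% and 23.8% of all genes higher, and was 30 with limma and 35 once the fit held the replicate numbers as blocks, beside 16.1% and 15.2%.

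By role, the median log2 fold change in the plasmid arm was 0.65 for transcription factors, 0.70 for stress effectors and 0.91 for serine and one-carbon enzymes. It was 0.94 for other enzymes, 0.93 for transporters and 0.77 for tRNA synthetases. Non-overlapping groups were most frequent among the synthetases, 6 of 10, namely AARS1, EPRS1, GARS1, NARS1, SARS1 and WARS1. The remaining 9 were ATF3, CEBPG, INHBE, PHGDH, PSPH, MTHFD2, CTH, PCK2 and SLC7A1.

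In edgeR fits of this comparison alone, the number of calls depended on Jag1KO + ctrl replicate 3. Without that library 42 of 46 members were called, all higher with the rescue, beside 14% of all genes higher and 14.8% lower, and the median was 1.45. All 8 transporters, 6 of 6 serine and one-carbon enzymes tested and all 10 synthetases were among them, with 7 of 8 stress effectors, 6 of 8 transcription factors and 5 of 6 other enzymes. ATF4, at 0.48 (SE 0.12) and an FDR of 0.0232 in edgeR, stayed under the fold threshold, and ATF5, DDIT4 and ALDH18A1 missed the FDR. PHGDH at 4.30 (SE 0.43), INHBE at 4.20 (SE 0.35), GDF15 at 3.48 (SE 0.44), SLC1A4 at 2.91 (SE 0.20), ATF3 at 2.89 (SE 0.32), CTH at 2.87 (SE 0.29) and ASNS at 2.83 (SE 0.27) had the 7 highest log2 fold changes. Leaving out any other library of this comparison gave 0 calls among the members.

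siCtrl against siJag1 asked what acute knockdown did. Of 47 members 46 lay above 0, as 48.2% of 12823 genes did, with a median of 0.18, and 0 were called, where 0.0156% of all genes were. DESeq2 called 0 as well, 0 members reached an unadjusted p below 0.05, where 2.6% of all genes were higher and 1.23% lower, and the smallest FDR was 0.969 (edgeR). With the replicate number as a block, by which siCtrl and siJag1 were read as paired, 7 members reached an unadjusted p below 0.05. All were higher in siCtrl, beside 5.01% of all genes higher, and 0 were called. Without siJag1 replicate 3 there were 8, beside 3.74%. The highest log2 fold change was that of INHBE, 0.76. NUPR1 alone had non-overlapping groups, where 5.15% of all genes were higher and 5.33% lower without overlap. Without siJag1 replicate 2 the median was 0.02.

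**Figure D3:**
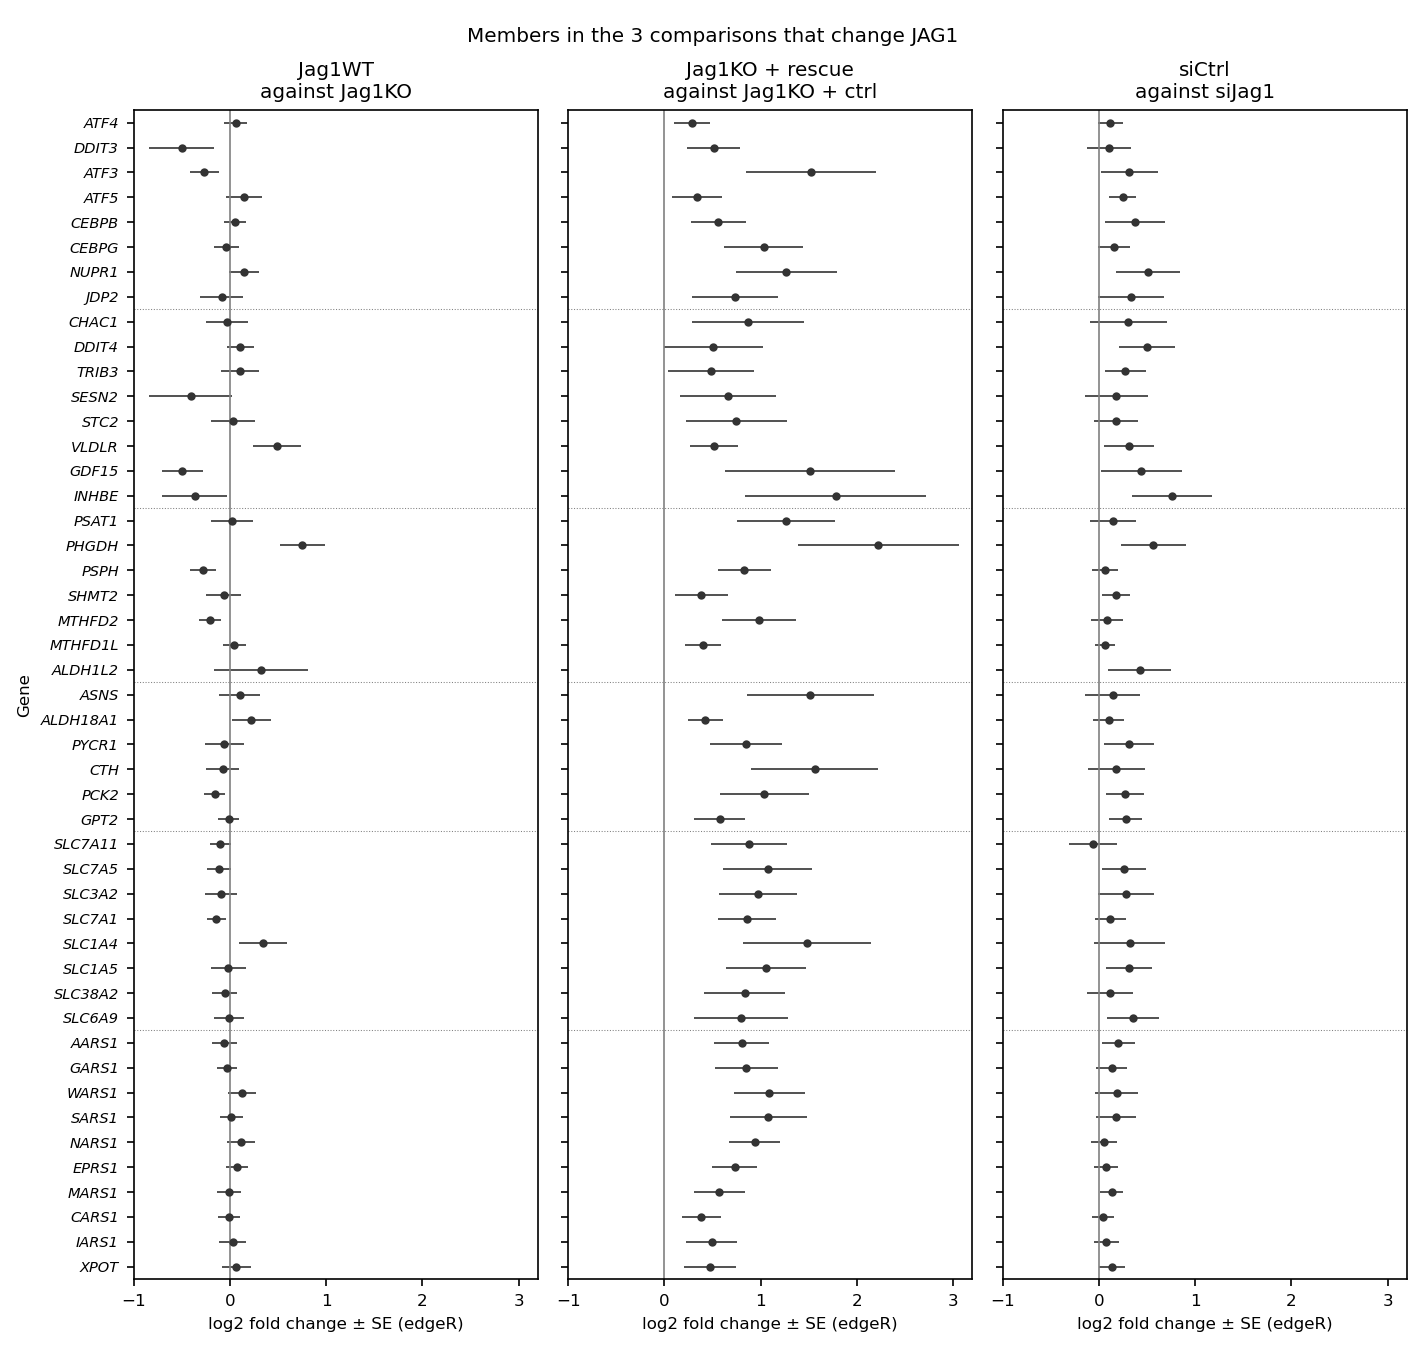
Log2 fold change of each member with its SE (edgeR, 6 libraries each) in the 3 comparisons that change JAG1, where positive values are higher in the group with more JAG1. Points scatter around 0 in Jag1WT against Jag1KO, with a median of -0.01, and lie to the right in the plasmid arm, with a median of 0.84, and less so in the siRNA arm, with a median of 0.18.

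The effects were also set against each other in fits of 12 libraries. No member passed an interaction FDR of 0.05 between the clone and siRNA arms, where 0.109% of all genes did, between the plasmid and clone arms, where 0.545% did, or between the plasmid and siRNA arms, where 0.0937% did. At an unadjusted p below 0.05 the counts of members with the larger effect in the first-named arm were 0, 15 and 3 by edgeR, beside 1.88%, 10.1% and 9% of all genes, and limma called 0 members in all 3. Leaving out 1 library moved the count of 15 to between 3 and 42 and the count of 3 to between 1 and 37, both highest without Jag1KO + ctrl replicate 3. Without Jag1KO + ctrl replicate 3, 35 members passed between the plasmid and clone arms and 30 between the plasmid and siRNA arms, each with the larger effect in the plasmid arm, beside 10.3% of all genes with the larger and 9.57% with the smaller effect there in the first and 8.23% and 6.87% in the second. These counts rest on the Jag1KO + ctrl libraries singled out after their values were seen and are a description.

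The control groups were compared directly because neither pair differs by design in JAG1. In Jag1KO + ctrl against Jag1KO, 44 of 46 members lay below 0, with a median of -0.56, and 0 members and 0% of all genes were called by edgeR, while DESeq2 called 0 members. At an unadjusted p below 0.05 there were 3, MTHFD2 at -0.91, PSPH at -0.73 and MTHFD1L at -0.47, where 2.06% of all genes were lower and 3.75% higher. PSPH alone had groups without overlap, as 4.04% of all genes were lower and 6.04% higher in that way. Without Jag1KO + ctrl replicate 3, 24 members were called lower in the empty-plasmid cells, beside 1.47% of all genes lower and 0.878% higher, with a median of -1.15, and they included 5 of 8 transporters and 7 of 10 synthetases. That count rests on the Jag1KO + ctrl libraries singled out after their values were seen and is a description. JAG1 itself was at -0.28 (SE 0.22, edgeR FDR 0.782) in this comparison. In siCtrl against Jag1WT the median was 0.03, 0 members were called by edgeR or DESeq2, and NUPR1 at 0.21 was the 1 member with an unadjusted p below 0.05, where 0.545% of all genes were higher and 0.833% lower. Groups did not overlap for NUPR1, SLC7A1 and PCK2, all higher in siCtrl, where 3.4% of all genes were higher and 2.9% lower.

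Neighbouring pathways were read from lists of related genes. The median level of a list follows its middle gene and not the change of each gene. By that measure, the synthetases outside the members were not low in the 3 libraries where those inside were. Gene by gene, 9 of the 12 other cytosolic ones lay below 0 in Jag1KO + ctrl against Jag1KO, with a median log2 fold change of -0.16. In siCtrl against siJag1, 7 of 12 lay above 0, with a median of 0.07. The 12 other cytosolic synthetases stood at 0.12, 0.19 and 0.33 on the scale of the median log2(CPM + 1) against Jag1WT in Jag1KO + ctrl replicates 1 and 2 and siJag1 replicate 2, and the 17 mitochondrial synthetases at 0.06, 0.02 and 0.18, where the 10 members of tRNA charging and export stood at -0.91, -1.27 and -0.56. In the plasmid arm the other cytosolic synthetases had a median log2 fold change of 0.37, with 9 of 12 above 0 and 6 without overlap and higher with the rescue, against 1 lower, as 6 of the 10 members of tRNA charging and export were higher without overlap, and YARS1 was highest at 1.06 and QARS1 lowest at -1.20. The mitochondrial ones had a median of -0.05, with 5 of 17 above 0. No gene of either list was called by edgeR in any of the 3 comparisons. Of all genes, 0.704%, 0.00776% and 0.0156% were called in the clone, plasmid and siRNA arms.

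Further reported ATF4 targets outside the members stood at -0.53 and -0.80 in Jag1KO + ctrl replicates 1 and 2 but at -0.05 in siJag1 replicate 2. In the plasmid arm 12 of 13 of them lay above 0, with a median log2 fold change of 0.70, and 0 were called. The median level of transporters outside the members was at -0.40, -0.47 and -0.42 in the 3 libraries, but also at -0.44 in Jag1KO replicate 2. The median level of the folate and methionine cycle outside the members went the other way, at 0.44, 0.58 and 0.46. Gene by gene, 6 of 13 lay above 0 in Jag1KO + ctrl against Jag1KO, with a median log2 fold change of -0.11. The median level of the kinases, eIF2 subunits and regulators of the integrated stress response lay between -0.14 and 0.32 in all 18 libraries. That of the NRF2 targets lay between -0.18 and 0.36. In the plasmid arm the median log2 fold changes of these lists were 0.17 and 0.22, with 14 of 18 and 6 of 8 genes above 0. Groups did not overlap for 7 of the 18, higher with the rescue, against 2 lower, and for 4 of the 8, all higher. Over all genes, 16.5% were higher and 16% lower in that way. In none of these lists was a gene called by edgeR in the 3 comparisons that change JAG1. Of all genes, 0.704%, 0.00776% and 0.0156% were called in the clone, plasmid and siRNA arms. With so few calls over all genes, 0 calls in a list do not show that it was unchanged. Calls by DESeq2 and by the fit of all 18 libraries were counted for the members and all genes, not for these lists.

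The other branches of the unfolded protein response are run by IRE1 and ATF6. Their median level was low in more libraries than that of the members. The median of their 17 genes stood at -0.65 and -0.74 in Jag1KO + ctrl replicates 1 and 2 and at -0.82 in siJag1 replicate 2. It was also at -0.56 in both Jag1KO replicates 2 and 3, where the median member was at 0.16 and -0.16. Gene by gene, however, the median log2 fold change was 0.07 in Jag1WT against Jag1KO, with 11 of 17 above 0. In Jag1KO + ctrl against Jag1KO it was -0.09, with 9 of 17 below 0. In the plasmid arm all 17 lay above 0, with a median log2 fold change of 0.66. By edgeR 0 were called there, where 0.00776% of all genes were.

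Proliferation genes, and in part hypoxia genes, were high in the libraries where the members were low. The 16 proliferation genes stood at 1.61, 2.05 and 1.84 in Jag1KO + ctrl replicates 1 and 2 and siJag1 replicate 2. They were also at 1.27 and 1.45 in Jag1KO replicates 2 and 3, and between -0.29 and 0.73 elsewhere. The 10 hypoxia genes stood at 1.49, 1.30 and 0.70 in the Jag1KO + ctrl libraries and between -0.42 and 0.53 in all others, siJag1 replicate 2 included, at 0.06. In the plasmid arm all 16 proliferation genes lay below 0, with a median log2 fold change of -1.39, and 8 of 10 hypoxia genes did, with a median of -0.57. By edgeR 0 of either list were called there, where 0.00776% of all genes were. In Jag1WT against Jag1KO all 16 proliferation genes lay below 0 too, with a median log2 fold change of -1.15. Groups did not overlap for 6 of them, all lower, where 6.61% of all genes were lower in that way. MCM2, a subunit of the replicative helicase, was called lower there, where 0.294% of all genes were. All 16 also lay below 0 in siCtrl against siJag1, with a median of -0.70. The 4 markers of other cell types above the minimum, CD68, PECAM1, EPCAM and GATA3, had a median of 0.61, 0.50 and 0.38 in the 3 libraries and -0.29 to 0.17 in the others, while PTPRC, CD3E, CDH5, PDGFRA and DCN stayed below 1 CPM. The part of any of these in the levels of the members was not tested.

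**Figure D4:**
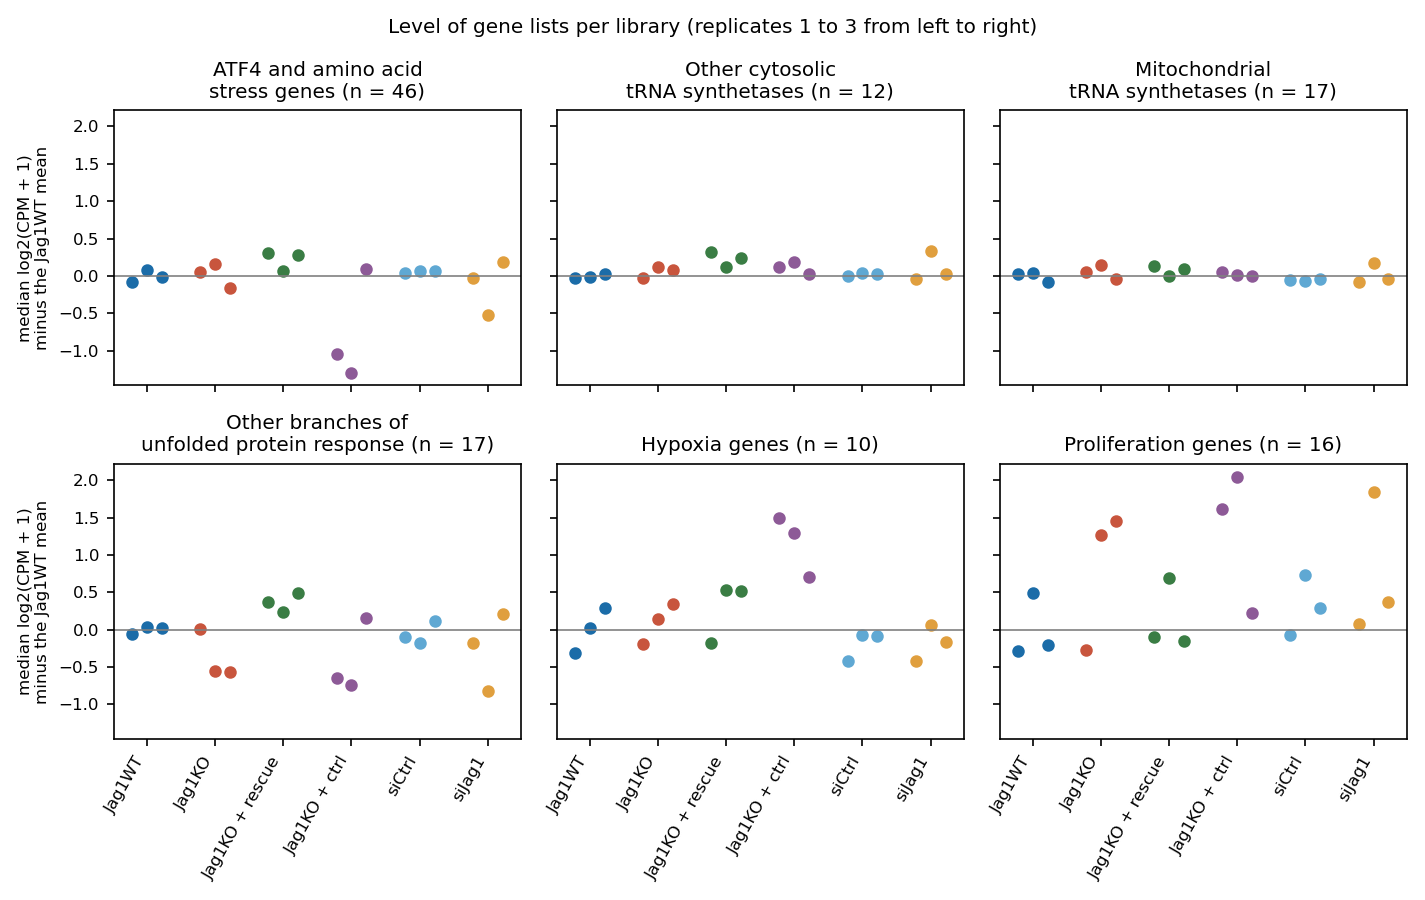
Median log2(CPM + 1) of 6 gene lists in each library minus the mean of the 3 Jag1WT libraries, with 1 point per library and the number of genes in each title. The median member stands at -1.05, -1.30 and -0.52 in Jag1KO + ctrl replicates 1 and 2 and siJag1 replicate 2. The medians of the other synthetases are not low there, while proliferation genes are high there and in Jag1KO replicates 2 and 3.

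Some counts may be shared with similar sequences. RefSeq names pseudogenes for 12 of the members and antisense genes for 8, and whether the counting used strand is not given in the sources used here, so small differences in those members are uncertain.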

How the data were processed

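Stranded mRNA libraries of 18 cultures were sequenced by the authors, aligned to hg38 and counted per gene as uniquely mapped reads. The submitters' processing notes name featureCounts, edgeR (version 3.28.0), R (version 3.6.1) and MultiQC (version 1.5), and the aligner is not given in the sources used here. The deposited counts are raw and whole. The deposited CPM, treated as a signal because they were scaled with TMM factors by the authors, served for levels per library and for the filter. The deposited RPKM served to compare levels between genes, and 3 RPKM columns that matched no sample label were not used. Coordinates and promoters are RefSeq on GRCh38.p14, and untranslated exons are from GENCODE.

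Groups followed the sample titles. edgeR (version 4.0.16, R 4.3.3) was run with its quasi-likelihood test and TMM factors on every gene that exceeded 1 CPM in 3 or more of the 6 libraries. A call needed a Benjamini-Hochberg FDR below 0.05 over all genes tested together with a fold change over 1.5, the cutoffs of the study, which had used ROTS on log2(CPM + 1). The SE is the absolute log2 fold change divided by the square root of F. Interactions used 12 libraries and genes exceeding 1 CPM in 6 or more, with no fold threshold. The fits were tested on simulated data. Total counts of 10330581 to 18327890 per library limit what is measured for members with few reads. Groups were called non-overlapping where all 3 libraries of 1 lay above all 3 of the other.

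DESeq2 (version 1.42.0), limma (version 3.58.1) on log2(CPM + 1) and log2(CPM + 0.5), no filter, a fit of all 18 libraries, the replicate number as a block and leaving out each library were the alternatives. Replicate numbers were checked as pairs by correlating deviations from the group means. The correlations were 0.542, 0.522 and 0.263 for siCtrl and siJag1 and 0.594, 0.711 and 0.209 for siCtrl and Jag1WT. All were above 0, so that there the numbers were read as pairs, which was not tested. The labels do not state a shared day or batch.

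The members, the lists and the tests were chosen with earlier results of these data known. Values per library were planned for JAG1, for members called in any comparison, for members without overlap in all 3 comparisons, of which there were 0, and for 12 members fixed by name (ATF4, DDIT3, TRIB3, CHAC1, ASNS, PSAT1, PHGDH, MTHFD2, SLC7A11, SLC7A5, AARS1 and GARS1). Of other lists, called genes or those with the largest fold changes could be named. Other genes are said to have been chosen after their values were seen.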

Additional observations from a re-analysis of the deposited data

How the results depend on the processing

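With no library left out, the edgeR fit of the 6 libraries of each comparison called 0 members. Members called changed in these settings. In Jag1KO + rescue against Jag1KO + ctrl, DESeq2 called 8 members, all higher with the rescue, beside 4.58% of all genes higher and 7.72% lower, and the fit of all 18 libraries 19, all higher, beside 6.05% and 10.7%, and leaving out 1 library gave 0 to 42 calls and a median log2 fold change of 0.59 to 1.45, the highest of both without Jag1KO + ctrl replicate 3. In Jag1KO + ctrl against Jag1KO the ranges were 0 to 24 calls and -1.15 to -0.34, and in Jag1WT against Jag1KO 0 to 4 calls, the extremes being without Jag1KO + ctrl replicate 3 and without Jag1KO replicate 1. The interaction of the plasmid and clone arms gave 1 call in the fit of all 18 libraries and 0 to 35 with 1 library left out, and that of the plasmid and siRNA arms 0 to 30. An arm with 1 library left out had 2 libraries, and the cause was not tested.

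With 1 library left out, log2 fold changes near 0 changed sign. In Jag1WT against Jag1KO the ranges were -0.15 to 0.039 for AARS1, -0.10 to 0.37 for ASNS, -0.21 to 0.20 for CHAC1, -0.074 to 0.019 for GARS1, -0.16 to 0.29 for PSAT1 and -0.059 to 0.27 for TRIB3. In siCtrl against siJag1 they were -0.15 to 0.39 for ASNS, -0.077 to 0.71 for CHAC1, -0.17 to 0.28 for DDIT3, -0.027 to 0.26 for GARS1, -0.085 to 0.25 for MTHFD2, -0.10 to 0.29 for PSAT1 and -0.28 to 0.23 for SLC7A11. limma with either pseudocount, the absence of a filter and the replicate block each gave 0 calls among the members in the 5 comparisons.

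With the replicate number as a block, the median log2 fold change was 0.00 to 2 decimals in Jag1WT against Jag1KO, 0.97 in the plasmid arm and 0.23 in the siRNA arm. It was -0.69 in Jag1KO + ctrl against Jag1KO and 0.03 in siCtrl against Jag1WT. The block changed no call among the members. Over all genes in Jag1WT against Jag1KO, it raised the calls from 0.41% to 1.12% higher and from 0.294% to 1.07% lower. It moved the members at an unadjusted p below 0.05 and higher in the first group from 17 to 35 in the plasmid arm and from 0 to 7 in the siRNA arm. In Jag1WT against Jag1KO that count moved from 1 to 3, beside 4.33% and 8.27% of all genes. Correlations of same-numbered samples were 0.632, 0.667 and -0.0136 for Jag1WT and Jag1KO. By these values replicates 1 and 2 read as paired there and replicate 3 did not. The correlations were -0.208, 0.345 and 0.241 for the plasmid arm, and -0.356, 0.279 and -0.608 for Jag1KO + ctrl and Jag1KO. In those comparisons the sign differed between replicates, so the numbers were not read as pairs. Differently numbered samples were not correlated, so neither reading was tested. Few reads limit ALDH1L2 and PHGDH.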
